A study of Mus musculus with 48 samples.

Results

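Cholesterol handling was followed through 34 genes that make, sense, move, esterify or export cholesterol, chosen by symbol and all found among the 20702 genes named on the arrays; Msmo1 was listed under its older symbol Sc4mol. They comprise 20 synthesis enzymes, 8 of the mevalonate and isoprenoid steps and 12 from squalene to cholesterol, with 6 genes of sensing and regulation, 4 of uptake and movement, and 4 of esterification and efflux. The RNA was from liver and from a gut sample labelled "Gut (DI)" of age-matched male C57BL/6J mice on a normal diet. They had received faecal material from donors fed high fat (HF), ketogenic (KD) or normal chow (NC) food. Tissue was taken at zeitgeber time ZT12 or ZT0 of a cycle with 12 h of light and 12 h of dark, ZT0 being lights-on. Each of the 12 groups (liver or gut, HF, KD or NC donors, ZT12 or ZT0) held 4 arrays, and all recipients shared the normal diet and the transplant procedure. The labels also mention germ-free mice and do not say which mice were the recipients, nor what flora the recipients still had. Their age is not stated.

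The titles hold 33 mouse codes, of which 15 occur in both tissues. Nothing beyond these codes says that samples of a group are separate animals, so p-values measure the spread between these arrays, which may be partly technical. Median intensity lay between 88.2 and 104.4 units on the liver arrays and between 124.9 and 135.8 units on the gut arrays. Hepatocyte markers, 7 of 7 measured, summed to 76072 to 84750 intensity units in liver and 1300 to 7918 in gut. The 7 markers of intestinal epithelium summed to 1582 to 2489 units in liver and 33504 to 42511 in gut. Gut arrays differed in lymphoid RNA: 7 B and plasma cell markers summed to 485 to 5263 units at ZT12 and to 537 to 5371 at ZT0, against 375 to 538 in liver. In bulk tissue, fewer cells of a type and less RNA per cell cannot be told apart.

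Cells build cholesterol from acetyl-CoA through mevalonate, isoprenoids, squalene and lanosterol. When membrane sterol is low, the escort protein SCAP carries the precursor of the transcription factor SREBP2 to the Golgi, where cleavage releases the part that switches on most genes of synthesis. Sterols make SCAP bind the retention proteins INSIG1 and INSIG2, which ends the supply, while oxysterols activate the nuclear receptor LXR, which raises sterol exporters. The small intestine absorbs cholesterol through NPC1L1, and both intestine and liver return it to the lumen or the bile through the paired transporter ABCG5/ABCG8.

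The promoters give a view of what the members share in sequence. Windows of 250 bases before a gene's start, from RefSeq on mouse build GRCm38.p6, were found for 28 of the 34 genes and for 15877 measured genes. The table lists several starts for some genes, and a gene was counted where any of its listed starts had a match. The NF-Y box CCAAT, read on either strand, occurred in 16 of 17 synthesis enzymes (94.1%) and in 82.1% of all members, against 39.3% of all measured genes. The GC box GGGCGG, read on either strand, was in 88.2% of the synthesis enzymes and 78.6% of the members, against 49.3%. The E-box CACGTG was in 21.4% of the members, against 8.08%. A loose form of the sterol regulatory element, TCACNCCAC on either strand, was found among the members only for Hmgcs1 (3.57% of members, against 1.23%). A strict form of that element, which contains the loose one, was in 0.0% of the members, against 0.0693%. The D-boxes TTATGTAA and TTACGTAA, each read on both strands, were in none of the members, against 0.888% and 0.151%. A match describes letters, not a bound site, and a missing match speaks only of these windows.

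Sequences are given for the windows of 3 synthesis enzymes and of the INSIG pair, since these genes carry the time differences, and for the stretch between the starts of Abcg5 and Abcg8, which are transcribed away from each other 109 bases apart. These genes were chosen after their values were seen. Each sequence runs 5′ to 3′ on the gene's strand, the gap on the plus strand. Capitals mark the sterol element, the NF-Y box, the GC box and the E-box on either strand. An NF-Y box on the other strand reads ATTGG, and the gap holds no match.
Hmgcs1, chr13:119690101-119690350, plus strand: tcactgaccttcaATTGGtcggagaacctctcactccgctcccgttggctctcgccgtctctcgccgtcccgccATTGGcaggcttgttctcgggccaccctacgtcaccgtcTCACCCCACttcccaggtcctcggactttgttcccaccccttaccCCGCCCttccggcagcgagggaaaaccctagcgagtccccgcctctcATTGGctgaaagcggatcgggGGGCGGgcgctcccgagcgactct
Lss, chr10:76531355-76531604, plus strand: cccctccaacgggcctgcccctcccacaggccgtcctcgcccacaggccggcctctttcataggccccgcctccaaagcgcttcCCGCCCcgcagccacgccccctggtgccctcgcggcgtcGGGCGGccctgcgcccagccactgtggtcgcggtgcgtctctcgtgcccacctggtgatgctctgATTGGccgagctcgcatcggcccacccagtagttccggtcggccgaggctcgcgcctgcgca
Mvd, chr8:122443423-122443672, minus strand: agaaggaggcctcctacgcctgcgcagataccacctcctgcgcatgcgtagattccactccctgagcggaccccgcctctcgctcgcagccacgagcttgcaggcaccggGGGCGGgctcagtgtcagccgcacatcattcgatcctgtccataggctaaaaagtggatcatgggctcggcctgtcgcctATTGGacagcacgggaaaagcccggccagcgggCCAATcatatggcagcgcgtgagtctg
Insig1, chr5:28071162-28071411, plus strand: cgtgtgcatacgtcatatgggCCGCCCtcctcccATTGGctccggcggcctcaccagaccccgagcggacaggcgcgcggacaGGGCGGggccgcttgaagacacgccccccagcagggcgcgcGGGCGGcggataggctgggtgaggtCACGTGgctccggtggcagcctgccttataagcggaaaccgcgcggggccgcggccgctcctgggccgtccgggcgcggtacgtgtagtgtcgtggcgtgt
Insig2, chr1:121332590-121332839, minus strand: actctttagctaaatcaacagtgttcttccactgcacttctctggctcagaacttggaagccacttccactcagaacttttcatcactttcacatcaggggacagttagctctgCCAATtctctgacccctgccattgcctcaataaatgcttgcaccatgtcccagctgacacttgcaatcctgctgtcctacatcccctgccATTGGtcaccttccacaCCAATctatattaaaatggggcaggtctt
Abcg5 and Abcg8 gap, chr17:84683012-84683120, plus strand: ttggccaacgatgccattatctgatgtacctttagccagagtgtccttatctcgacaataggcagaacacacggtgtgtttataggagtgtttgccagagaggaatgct

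Hmgcs1, Lss and Mvd carry CCAAT within 62 bases of the start, and Insig1 has both 3 GC boxes and an E-box. The Insig2 window has 3 CCAAT boxes and no GC box or E-box at the start shown; a GC box was found at another listed start of Insig2.

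The first question was whether these genes differed between ZT12, the start of the dark phase, and ZT0. In gut, with the 3 donor diets averaged, 20 of the 34 genes passed the threshold (adjusted p under 0.05, limma across all genes with Benjamini-Hochberg adjustment), against 21.5% of all genes. Of these, 18 were higher at ZT12 (background 10.3%) and 2 were lower (background 11.2%). Synthesis led: 15 of the 20 enzymes rose and 0 fell, with a median log2 difference of 0.47 over the 20, against -0.003 over all genes. The plot of time differences shows both tissues side by side.

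**Figure D1:**
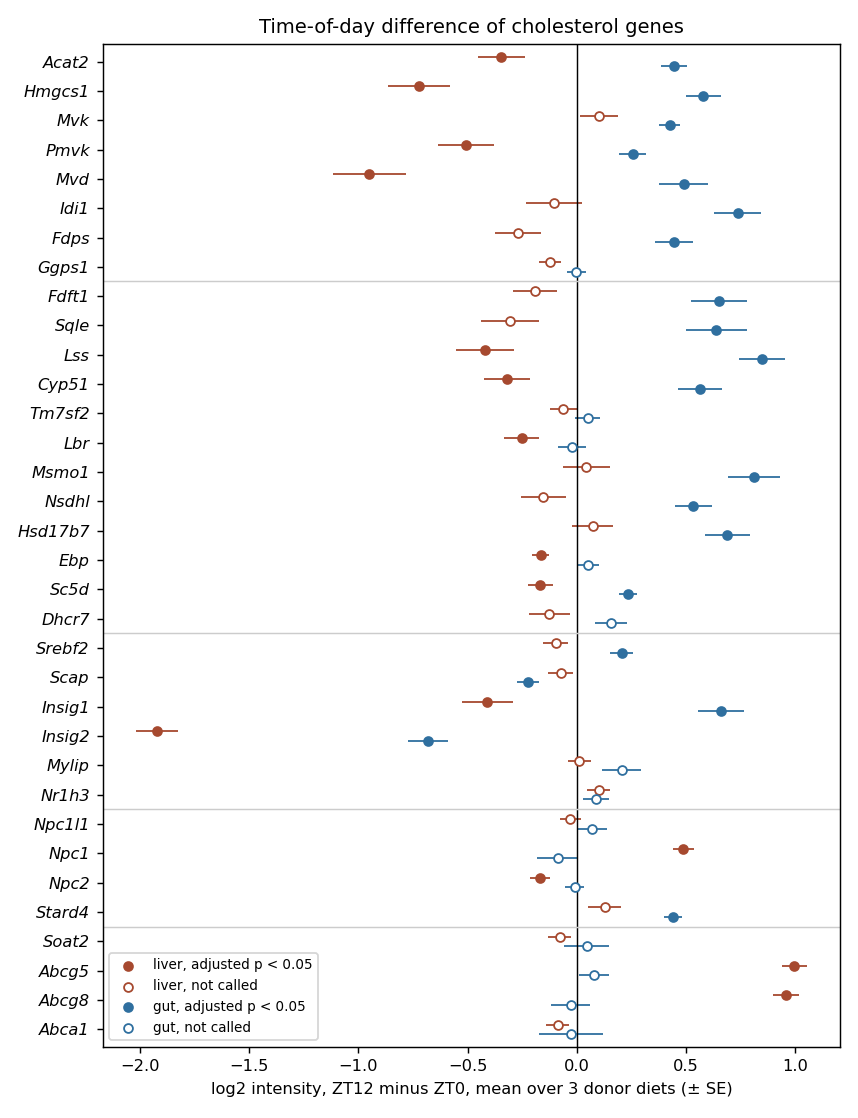
Log2 difference between ZT12 and ZT0 (mean over 3 donor diets, ± SE of the fit) for the 34 genes in liver and gut, ordered by role; filled points passed adjusted p under 0.05. In gut 15 of 20 synthesis enzymes lie right of 0 and called, while in liver 9 lie left of 0 and called, and Abcg5, Abcg8 and Npc1 stand to the right in liver.

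All mevalonate steps but one were higher in gut at ZT12. Values are log2 of normalised intensity throughout, and a group of 12 arrays is given by its lowest, median and highest. Hmgcs1, encoding the cytosolic synthase that makes HMG-CoA, had 11.10, 11.54 and 11.75 at ZT12, against 10.53, 10.96 and 11.29 at ZT0. The ranges overlapped only between 11.10 and 11.29, and the difference was 0.58 ± 0.08 (SE; 1.49-fold; adjusted p = 1.7e-05, limma). Mvk, mevalonate kinase, had 8.23, 8.42 and 8.61 at ZT12, against 7.79, 8.04 and 8.21 at ZT0. Its lowest ZT12 array was above its highest ZT0 array, and the difference was 0.42 ± 0.05 (adjusted p = 1.81e-06). Without overlap between the 12 arrays of each time stood 2 members, Mvk and Stard4, in gut, where 1.08% of all genes did so. Idi1, the isomerase of the isoprenoid unit, rose by 0.74 ± 0.11, though its 2 transcript clusters may share sequence and which locus each reads is not stated. Mvd, the decarboxylase that ends the mevalonate steps, rose by 0.49 ± 0.11. Acat2, the thiolase that starts the pathway, rose by 0.45 ± 0.06, Fdps, which makes farnesyl diphosphate, by 0.44 ± 0.09, and Pmvk, which adds the next phosphate, by 0.26 ± 0.06. Ggps1 takes farnesyl diphosphate away from sterols into protein prenylation; it was at -0.003 ± 0.044 and did not pass.

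From squalene on, 8 of 12 enzymes rose in gut. Lss, lanosterol synthase, which closes the sterol rings, had 8.56, 9.23 and 9.81 at ZT12, against 7.94, 8.34 and 8.86 at ZT0. It was the largest difference among the members in gut, at 0.85 ± 0.11 (1.80-fold; adjusted p = 5.69e-06). The arrays of the 2 times overlapped between 8.56 and 8.86, where the low ZT12 values came from HF recipients. Msmo1, a methylsterol oxidase, followed with 0.81 ± 0.12 and Hsd17b7, a sterol ketoreductase, with 0.69 ± 0.10. Fdft1, squalene synthase, rose by 0.65 ± 0.13, with the same doubt about its 2 clusters as for Idi1. Sqle, squalene epoxidase, rose by 0.64 ± 0.14 and Cyp51, lanosterol demethylase, by 0.56 ± 0.10. Nsdhl, which works with Msmo1, rose by 0.53 ± 0.08, and Sc5d, a sterol desaturase, by 0.23 ± 0.04. Not passing were Dhcr7, the last reductase (0.16 ± 0.07; adjusted p = 0.125), the isomerase Ebp (0.05 ± 0.05), and Tm7sf2 (0.05 ± 0.06) and Lbr (-0.02 ± 0.07), a pair of reductases for the same double bond.

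Among regulators in gut, the INSIG pair moved in opposite directions. Insig1, itself a target of SREBP2, had 10.21, 10.75 and 11.26 at ZT12, against 9.81, 10.10 and 10.67 at ZT0, a rise of 0.66 ± 0.11 (adjusted p = 0.00013). Insig2, which is made without that drive, had 8.80, 9.05 and 9.53 at ZT12, against 9.33, 9.77 and 10.08 at ZT0, a difference of -0.68 ± 0.09 (adjusted p = 1.55e-05). In each case the ranges of the times overlapped by a few arrays. Srebf2, encoding SREBP2, rose by 0.20 ± 0.05 and Scap was lower, at -0.22 ± 0.05. The Scap call came from the brighter of its 2 clusters; their mean gave -0.04 and did not pass. Mylip, a ubiquitin ligase that removes lipoprotein receptors, was at 0.20 ± 0.09 (adjusted p = 0.0989) and Nr1h3, encoding LXRα, at 0.09 ± 0.06 (adjusted p = 0.304).

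Of the 4 genes of uptake and movement in gut, only Stard4 passed, where 21.5% of all genes did. Stard4, a sterol carrier of the cytosol, had 10.30, 10.58 and 10.78 at ZT12, against 9.98, 10.10 and 10.28 at ZT0, and rose by 0.44 ± 0.04 (adjusted p = 1.03e-07), the lowest adjusted p of the members in gut. Npc1l1, the importer at the brush border, had 12.09, 12.30 and 12.72 at ZT12, against 11.97, 12.30 and 12.44 at ZT0. Its medians coincided and the difference was 0.07 ± 0.07 (95% interval -0.07 to 0.21). Npc1 (-0.09 ± 0.10) and Npc2 (-0.01 ± 0.04), which release cholesterol from lysosomes, did not pass. Of the esterification and efflux genes, 0 of 4 passed, against 21.5% of all genes. At unadjusted p under 0.05 stood 0 of 4, against 34.6%. The 4 genes were Soat2, which esterifies cholesterol for chylomicrons (0.05 ± 0.10), Abcg5 (0.08 ± 0.07), Abcg8 (-0.03 ± 0.09) and Abca1, which loads apolipoprotein A-I (-0.03 ± 0.15).

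Some marker genes differed with time in gut, where 10.3% of all genes were higher at ZT12 and 11.2% lower. Of 7 epithelial markers 2 were higher at ZT12, at a median of 0.05, and 0 of 7 B and plasma cell markers passed, at a median of -0.25. Olfm4, 1 of 5 crypt markers, was lower (-0.32), as was Alb, 1 of 7 hepatocyte markers (-1.36), and of 4 macrophage markers 2 were higher and 1 lower. Slc10a2, the ileal bile acid transporter, rose by 0.92 (adjusted p = 0.000664), 1 of 3 ileal markers. Their part in the synthesis difference was not tested.

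**Figure D2:**
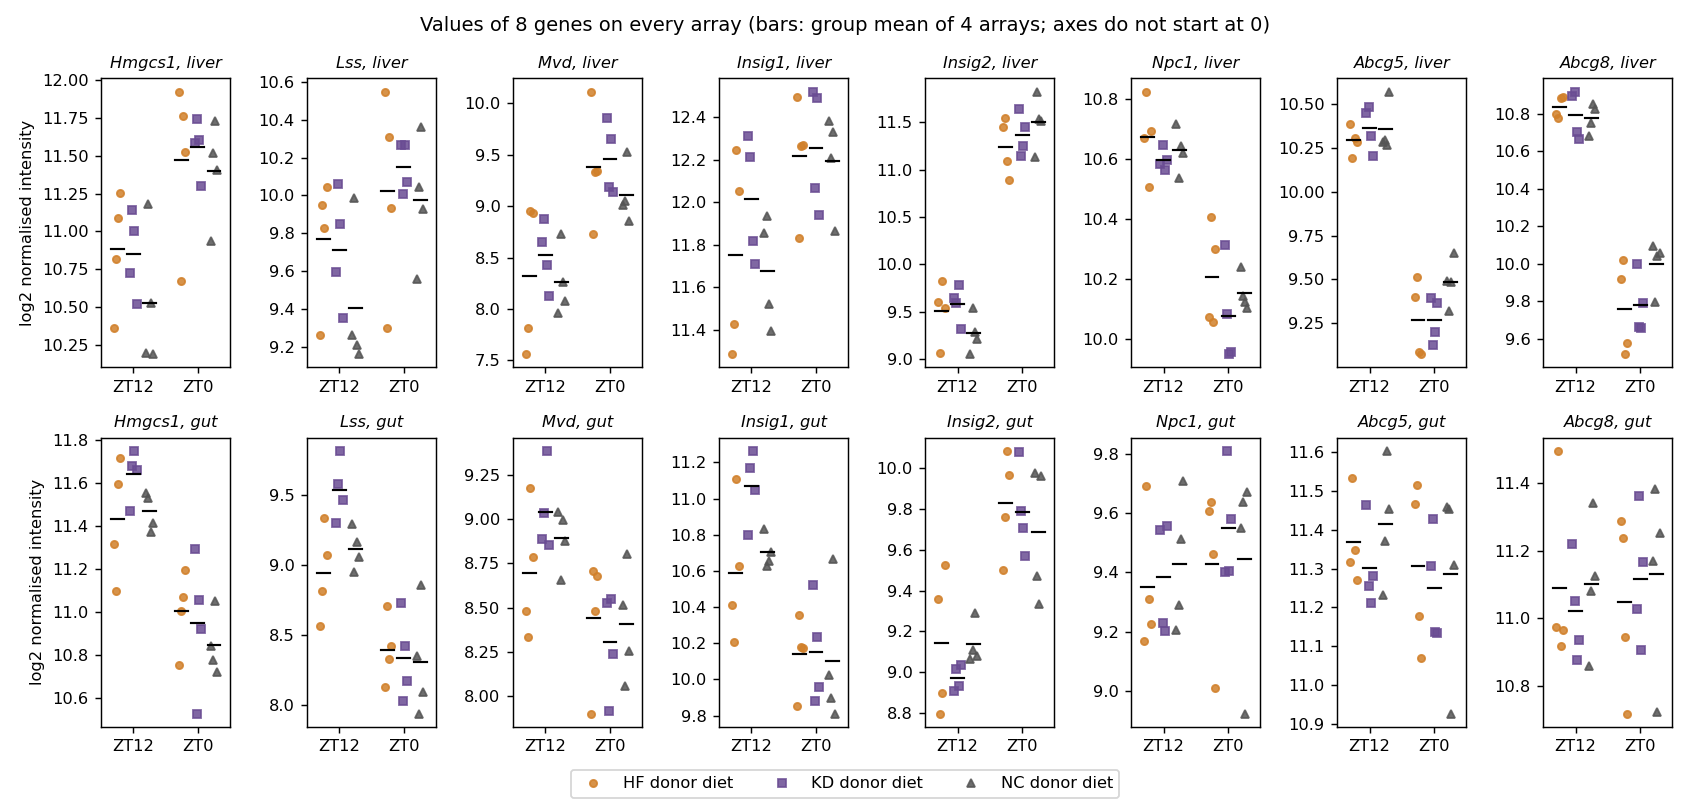
Log2 normalised intensity of 8 genes on every array (y axis), for liver (top) and gut (bottom), at ZT12 and ZT0, by donor diet (HF, KD, NC); bars are means of 4 arrays and axes do not start at 0. Hmgcs1, Lss, Mvd and Insig1 are higher at ZT12 in gut and lower at ZT12 in liver, Insig2 is lower at ZT12 in both, and Npc1, Abcg5 and Abcg8 are higher at ZT12 in liver.

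Within single donor diets in gut, the same differences rested on 4 against 4 arrays. With HF donors 3 members passed, Mvk (0.38 ± 0.09) and Stard4 (0.41 ± 0.07) higher and Insig2 (-0.68 ± 0.16) lower, against 3.32% of all genes (1.49% higher and 1.83% lower). With KD donors 15 passed, 14 higher and 1 lower, against 4.0% (2.12% higher and 1.88% lower). With NC donors 9 passed, all higher, against 2.39% (1.22% higher and 1.17% lower). Lss, for instance, was at 0.55 ± 0.18 with HF donors, 1.195 ± 0.184 with KD donors and 0.80 ± 0.18 with NC donors. Medians of the 20 synthesis enzymes were 0.33, 0.63 and 0.49 in that order. The time difference itself was compared between donors: 0 of 34 members passed for HF minus NC (background 0.0%) and 0 for KD minus NC (background 0.00483%), and 0 had an unadjusted p under 0.05 in either.

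These per-donor counts turned on single arrays. Without HF ZT12 replicate 10 the HF count was 5, and without HF ZT12 replicate 8 it was 1. Without KD ZT0 replicate 4 the KD count was 9. For NC donors the count was 2 without ZT0 replicate 3, 5 without ZT0 replicate 6, 3 without ZT12 replicate 10, and 5 without ZT12 replicate 11 or 12.

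In liver the largest differences between ZT12 and ZT0 among the members were those of Insig2 and Mvd, both lower, and of Abcg5 and Abcg8, both higher. Of the 34 genes 15 passed with donor diets averaged, 3 higher (background 13.2%) and 12 lower (background 15.1%), against 28.3% of all genes in either direction. Synthesis enzymes leaned the other way than in gut: 9 of 20 fell and 0 rose, at a median of -0.18, against 0.01 over all genes. The 12 arrays of the 2 times did not overlap for 4 members, 3 above and 1 below, while 2.86% of all genes did not overlap.

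Insig2 had the largest difference of the members. In liver it had 9.05, 9.54 and 9.82 at ZT12, against 10.89, 11.45 and 11.83 at ZT0. The times lay more than 1 log2 unit apart with no overlap, and the difference was -1.92 ± 0.10 (0.264-fold; adjusted p = 2.12e-13). With single donors it was -1.74 ± 0.17 (HF), -1.79 ± 0.17 (KD) and -2.23 ± 0.17 (NC), and it passed in each. Insig1 had 11.29, 11.84 and 12.31 at ZT12, against 11.83, 12.27 and 12.52 at ZT0, a difference of -0.41 ± 0.12 (adjusted p = 0.00967), so that in liver both INSIG genes were lower at ZT12. Srebf2 (-0.10 ± 0.06), Scap (-0.07 ± 0.06), Mylip (0.01 ± 0.05) and Nr1h3 (0.10 ± 0.05) did not pass.

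The exporter pair rose together. Abcg5 in liver had 10.19, 10.30 and 10.57 at ZT12, against 9.08, 9.38 and 9.65 at ZT0. The times did not overlap and the difference was 0.996 ± 0.057 (1.99-fold; adjusted p = 3.34e-12). Abcg8 had 10.67, 10.81 and 10.92 at ZT12, against 9.52, 9.86 and 10.10 at ZT0, again with no overlap, and rose by 0.96 ± 0.06 (1.94-fold; adjusted p = 8.44e-12). Npc1, the lysosomal exporter, had 10.51, 10.63 and 10.83 at ZT12, against 9.95, 10.11 and 10.41 at ZT0, and rose by 0.49 ± 0.05 (adjusted p = 5.56e-08). Its partner Npc2 fell, at -0.17 ± 0.05 (adjusted p = 0.00866). Abca1 (-0.09 ± 0.05), Soat2 (-0.08 ± 0.05) and Stard4 (0.13 ± 0.08) did not pass. Npc1l1 was dim in liver, between 6.19 and 6.51 at ZT12, against 6.24 to 6.54 at ZT0, and was not shown to be above background there.

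Of the mevalonate steps in liver, 4 of 8 fell. Mvd had 7.56, 8.35 and 8.96 at ZT12, against 8.73, 9.26 and 10.12 at ZT0, a difference of -0.95 ± 0.17 (0.518-fold; adjusted p = 0.000127). Hmgcs1 had 10.19, 10.77 and 11.26 at ZT12, against 10.67, 11.55 and 11.92 at ZT0, a difference of -0.72 ± 0.14 (adjusted p = 0.000389). The ranges of the times overlapped for both, and HF recipients held both the lowest and the highest Mvd value at each time. Pmvk (-0.51 ± 0.13) and Acat2 (-0.35 ± 0.11) also fell. Mvk (0.10 ± 0.09), Idi1 (-0.10 ± 0.13), Fdps (-0.27 ± 0.11; adjusted p = 0.0585) and Ggps1 (-0.12 ± 0.05; adjusted p = 0.0744) did not pass.

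From squalene on, 5 of 12 enzymes fell in liver. Lss had 9.16, 9.71 and 10.06 at ZT12, against 9.30, 10.06 and 10.55 at ZT0, with wide overlap and a difference of -0.42 ± 0.13 (adjusted p = 0.0197). Cyp51 (-0.32 ± 0.11), Lbr (-0.25 ± 0.08), Ebp (-0.17 ± 0.04) and Sc5d (-0.17 ± 0.06) also passed. Sc5d stood near the threshold (adjusted p = 0.03) and did not pass without KD ZT12 replicate 8 or NC ZT12 replicate 8, nor without HF ZT0 replicate 2 or 4, KD ZT0 replicate 5 or NC ZT0 replicate 4 (-0.16 to -0.14, adjusted p up to 0.0593, limma). Msmo1 (0.04 ± 0.11) and Hsd17b7 (0.07 ± 0.09), both among the larger rises in gut, were near 0 in liver. Sqle was at -0.31 ± 0.13 (adjusted p = 0.0865). Over all genes in liver 13.2% were higher at ZT12 and 15.1% lower. Among liver markers at ZT12, 1 of 7 hepatocyte markers was higher and 1 lower, and 2 of 5 acinar markers were higher. Lower were 2 of 4 macrophage markers (median -0.21), 2 of 4 smooth muscle markers (Acta2 at -0.48, Des at -0.14) and 2 of 5 crypt markers (Lgr5 at -0.60, Ccnb1 at -0.15). Slc10a2 (-0.71), 1 of 3 ileal markers, and Krt20 (-0.31), 1 of 7 epithelial markers, were also lower, and 0 B and plasma cell, T cell or adipocyte markers passed. Krt20, Ccnb1 and Des were dim in liver, at means of 5.44, 5.98 and 6.50, and were not shown to be above background. The crypt, ileal and epithelial lists name gut cells, and which liver cells gave these signals was not tested. The part of the markers in the member values was not tested.

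Per donor, 5 members passed in liver with HF donors, 3 higher and 2 lower (background 7.85%, or 3.16% higher and 4.69% lower). With KD donors 5 passed, 3 higher and 2 lower (8.65%, or 3.33% and 5.32%), and with NC donors 6, 3 in each direction (9.08%, or 4.23% and 4.85%). Abcg5, Abcg8 and Npc1 were higher and Insig2 lower in each of the 3. Mvd passed besides with HF (-1.06 ± 0.29) and KD donors (-0.94 ± 0.29), and Hmgcs1 (-0.87 ± 0.24) and Ebp (-0.23 ± 0.07) with NC donors. These 4 calls were weak: leaving out 1 of the 8 arrays ended that of Mvd in 3 fits with HF and 6 with KD donors, and with NC donors that of Hmgcs1 in 5 and of Ebp in 6. The change of the time difference passed for 0 of 34 members for HF minus NC and for KD minus NC donors (background 0.0% in each). At unadjusted p under 0.05 stood 2 members for HF minus NC (2.89% of all genes), Insig2 (0.49 ± 0.24) and Abcg8 (0.30 ± 0.14), and 0 for KD minus NC.

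The time differences were then compared between the tissues in 1 fit over all 48 arrays. The difference of ZT12 minus ZT0 in liver minus that in gut passed for 23 of 34 members, 3 above 0 and 20 below, against 17.6% of all genes (8.81% above and 8.77% below). All 20 synthesis enzymes were below 0, 16 of them past the threshold. Mvd differed by -1.42 ± 0.21, Hmgcs1 by -1.28 ± 0.17, Lss by -1.24 ± 0.17 and Insig1 by -1.06 ± 0.16. Insig2 differed by -1.17 ± 0.14, as it was lower at ZT12 in both tissues and more so in liver. Abcg8 (0.98 ± 0.11), Abcg5 (0.88 ± 0.09) and Npc1 (0.58 ± 0.11) stood above 0.

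Taking the calls of each tissue, 8 members were higher at ZT12 in gut and lower in liver, namely Acat2, Hmgcs1, Pmvk, Mvd, Lss, Cyp51, Sc5d and Insig1; 0.812% of all genes had that pair of calls. Another 10 were higher in gut and not called in liver, among them Msmo1, Hsd17b7, Idi1 and Stard4, against 6.7% of all genes. The difference between tissues itself passed for all 18, though for Mvk (-0.31 ± 0.10) not without liver HF ZT12 replicate 10 (-0.27), HF ZT0 replicate 2 (-0.28) or NC ZT0 replicate 5 (-0.29). Lbr, Ebp and Npc2 were lower in liver and not called in gut, a pair of calls that 10.4% of all genes had. Of these members only Ebp differed between tissues (-0.22 ± 0.07).

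Levels also differed by tissue, in the same fit and with times and donors averaged. All 34 members passed for liver minus gut, 23 higher and 11 lower in liver, where 86.4% of all genes passed (52.0% higher and 34.4% lower). The figure of tissue differences orders them by role. Npc1l1 averaged 67.0 intensity units in liver, below the array medians and not shown to be above background, and 5095 units in gut, so its fitted difference is a limit and is not given as a fold. Abcg5 (-1.13 ± 0.05), Abcg8 (-0.42 ± 0.05), Soat2 (-0.67 ± 0.06), Stard4 (-0.66 ± 0.04), Srebf2 (-0.76 ± 0.04) and Mylip (-0.45 ± 0.05) were also lower in liver. Scap (2.05 ± 0.04), Insig1 (1.84 ± 0.08), Abca1 (1.65 ± 0.08), Nr1h3 (1.60 ± 0.04), Insig2 (1.37 ± 0.07) and Npc1 (1.34 ± 0.06) were higher in liver. The Scap value came from the brighter of its 2 clusters. Its other cluster averaged 157.9 intensity units in liver and 121.8 in gut, and was not tested between tissues. Of the synthesis enzymes 17 of 20 were higher in liver, from 0.20 ± 0.08 for Hmgcs1 to 1.68 ± 0.04 for Tm7sf2. Ggps1 (-1.003 ± 0.033), Lbr (-1.24 ± 0.05) and Sqle (-0.26 ± 0.10) were lower. Tissue differences depended on scaling: without quantile normalisation the median of all genes moved by -0.36, Hmgcs1 turned to -0.12 and did not pass, and Mvd, Fdft1, Cyp51 and Msmo1 no longer passed.

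**Figure D3:**
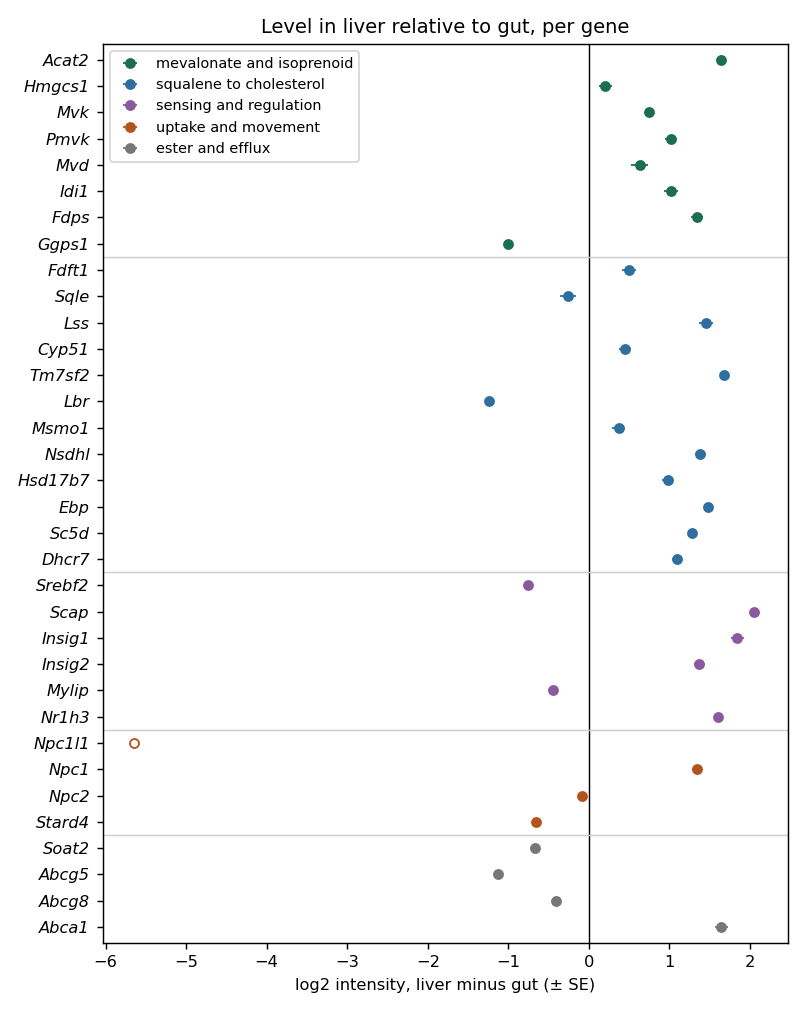
Log2 intensity in liver minus gut (± SE of the fit over 48 arrays) for each gene, coloured by role. Most synthesis enzymes lie between 0 and 1.68, and the open point without an error bar is Npc1l1, whose liver signal was below the array medians and sets only a limit.

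The study's central comparison asked whether the donors' diet changed the recipients. For the cholesterol genes, 0 of 34 members passed when any pair of donor diets was compared by limma in either tissue, at ZT12, at ZT0 or averaged. Over all genes these comparisons called 0.0% or 0.00483% in the fit to all groups of the tissue. At unadjusted p under 0.05 stood, in gut at ZT12, 1 member for HF against NC (9.38% of all genes), 4 for KD against NC (9.51%) and 6 for HF against KD (3.65%), and 0 in each comparison at ZT0. In liver 0 members did so at ZT12, and at ZT0 2 did so for HF against NC (4.93% of all genes), 2 for KD against NC (5.21%) and 0 for HF against KD. A fit limited to the groups compared called 453 of 20702 genes for KD minus NC in gut at ZT12, with 0 members among them.

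The largest donor differences lay in gut at ZT12. Lss had 9.34, 9.07, 8.56 and 8.81 with HF donors, 9.46, 9.29, 9.57 and 9.81 with KD donors, and 9.06, 9.29, 8.95 and 9.16 with NC donors. Every KD array was at or above the NC arrays, and 1 HF array reached above the lowest KD array. KD minus NC was 0.42 ± 0.18 (95% interval 0.04 to 0.80; adjusted p = 0.464, limma), and HF minus KD was -0.59 ± 0.18 (-0.97 to -0.21; adjusted p = 0.999). Insig1 had 11.11, 10.63, 10.41 and 10.21 with HF donors, 11.05, 10.80, 11.17 and 11.26 with KD donors, and 10.71, 10.83, 10.63 and 10.65 with NC donors. HF minus KD was -0.48 ± 0.18 for Insig1 and -0.34 ± 0.11 for Acat2, with adjusted p of 0.999 each. Stard4 was at 0.20 ± 0.07 for KD minus NC (adjusted p = 0.318). HF minus NC for Mylip was -0.33 ± 0.15 (adjusted p = 0.511).

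At ZT12 in gut all 20 synthesis enzymes had a value above 0 for KD minus NC (median 0.17, against 0.02 over all genes, of which 55.6% were above 0) and all 20 a value below 0 for HF minus KD (median -0.19, against 0.0). These comparisons share the KD arrays, and the enzymes vary together on single arrays, so that the signs are not 20 separate observations. At ZT0 the medians were 0.08 for KD minus NC and 0.04 for HF minus KD. The 4 NC arrays of ZT12 were rich in lymphoid RNA, with B and plasma cell markers summing to 2444 to 5263 units, against 485 to 552 with KD donors and 539 to 2745 with HF donors. The part of this in the enzyme values was not tested. The authors' deposited table for KD against NC donors at ZT12 in gut gave Lss a ratio of 1.34 with p = 0.000723, which after Benjamini-Hochberg adjustment over the clusters of that table was 0.0315. It was the 1 member so called, where 2.78% of the clusters of that table were.

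**Figure D4:**
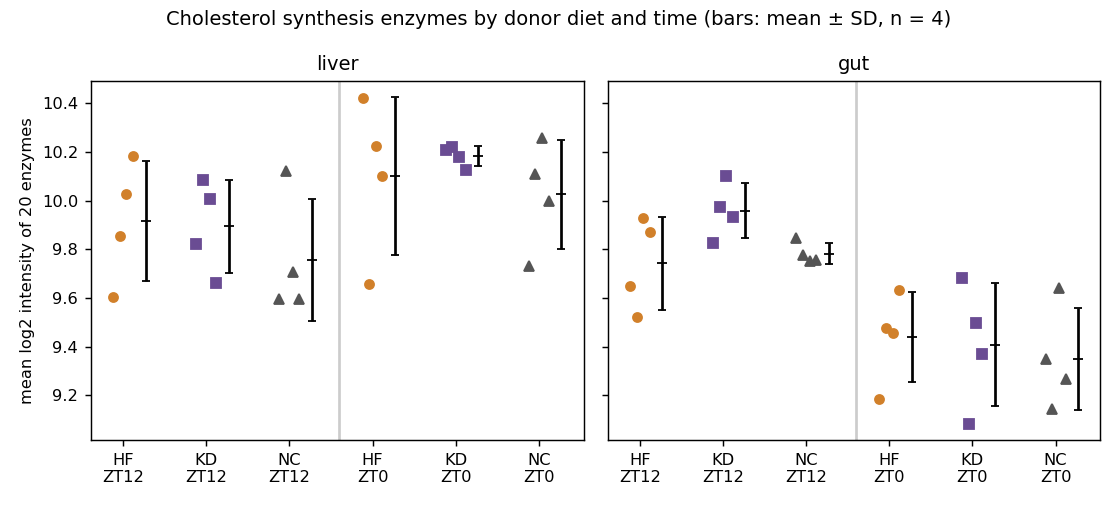
Mean log2 intensity of the 20 synthesis enzymes on each array (points; y axis) by donor diet and time, in liver and gut; black bars are mean ± SD of 4 arrays. The means of the gut groups of ZT12 lie above those of ZT0, while single arrays of the times overlap. The KD arrays of ZT12 in gut span 9.83 to 10.10.

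Averaged over the 20 synthesis enzymes, gut arrays of ZT12 stood at 9.74 ± 0.19 with HF donors, 9.96 ± 0.11 with KD donors and 9.78 ± 0.04 with NC donors (SD, n = 4 each). At ZT0 they stood at 9.44 ± 0.19, 9.41 ± 0.25 and 9.35 ± 0.21 in the same order. The 4 NC arrays of ZT12 had an SD of 0.04, less than the other gut groups. In liver the means at ZT12 were 9.92 ± 0.25 with HF donors, 9.90 ± 0.19 with KD donors and 9.76 ± 0.25 with NC donors. At ZT0 they were 10.10 ± 0.32, 10.19 ± 0.04 and 10.03 ± 0.22. The 4 KD arrays of ZT0 kept within 10.13 to 10.22, whereas the HF arrays of that time ranged over 9.66 to 10.42.

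In liver at ZT0 the exporters gave the lowest unadjusted p among donor differences. Abcg8 had 9.92, 10.02, 9.52 and 9.58 with HF donors, 10.001, 9.666, 9.660 and 9.793 with KD donors, and 10.10, 9.79, 10.04 and 10.06 with NC donors. HF minus NC was -0.24 ± 0.10 (95% interval -0.45 to -0.03; adjusted p = 0.988) and KD minus NC -0.22 ± 0.10 (adjusted p = 0.929). Abcg5 was at -0.22 ± 0.10 in both. Values overlapped between the donor groups, and both comparisons share the NC arrays. For KD minus NC 19 of 20 synthesis enzymes were above 0 in liver at ZT12 (median 0.15) and at ZT0 (median 0.16), where 48.4% and 50.1% of all genes were above 0. For HF minus NC, against the same NC arrays, 18 of 20 were above 0 at ZT12 (median 0.16) and at ZT0 (median 0.07). Over all genes 50.5% and 48.7% were above 0. The enzymes vary together on single arrays, so the signs are not 20 separate observations. No synthesis enzyme had an unadjusted p under 0.05 in these 4 comparisons.

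Beyond group means, synthesis enzymes went up and down together from array to array. With each group's mean removed, pairs of synthesis enzymes had a median Pearson correlation of 0.71 over the 24 liver arrays and 0.65 over the 24 gut arrays, whereas a synthesis enzyme and any other gene had a median of 0.02 and -0.01. These are descriptions: the pairs share arrays, RNA and normalisation. Hmgcs1, Lss, Cyp51, Fdft1, Fdps, Hsd17b7 and Nsdhl had medians with the other enzymes between 0.72 and 0.85 in both tissues. Ggps1 did not follow, at -0.16 in liver and -0.28 in gut. Sc5d followed in liver (0.63) and hardly in gut (0.07).

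**Figure D5:**
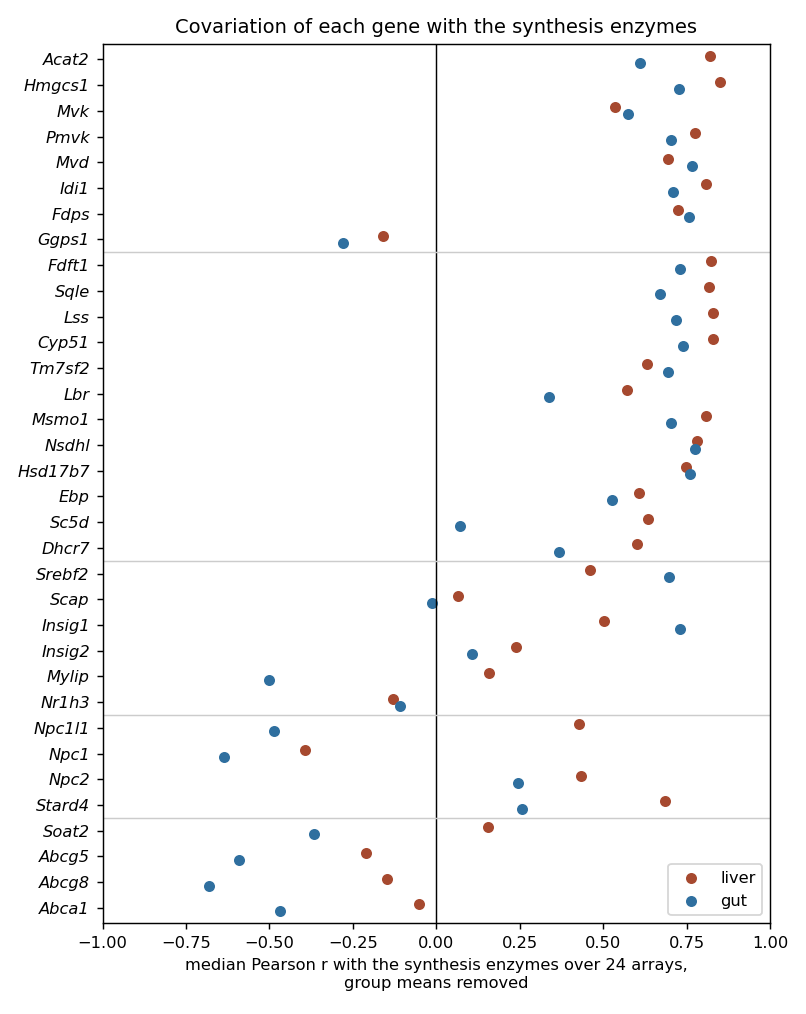
Median Pearson correlation of each gene with the synthesis enzymes over 24 arrays of liver or gut after removal of group means (x axis). Synthesis enzymes cluster to the right, and in gut Npc1, Npc1l1, Abcg5, Abcg8, Abca1 and Mylip lie to the left of -0.4, while Stard4 and Npc2 lie right of 0.

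Regulators and transporters varied. Insig1 followed the enzymes in liver (0.50) and gut (0.73), as did Srebf2 (0.46 and 0.70), whereas Insig2 (0.24 and 0.11) and Scap (0.07 and -0.01) barely did. In gut 5 genes of transport were below 0: Abcg8 had -0.68, Npc1 -0.64, Abcg5 -0.59, Npc1l1 -0.49 and Abca1 -0.47. In liver Abcg8, Npc1, Abcg5 and Abca1 had -0.15, -0.39, -0.21 and -0.05. Stard4 (0.68 and 0.26) and Npc2 (0.43 and 0.24) were above 0 in liver and gut. Abcg5 and Abcg8, neighbours that share the 109-base gap shown above, correlated at 0.83 in liver and 0.89 in gut. Abcg5 and Abca1 correlated at 0.02 in liver and 0.85 in gut, so a high value in gut was not particular to the neighbours. HF ZT12 replicate 12 of gut shows the pattern on 1 array: it was the lowest of its group for Hmgcs1 (11.10) and Sqle (9.95) and the highest for Abcg8 (11.49) and Npc1 (9.69). For the 15 mice with both tissues, deviations of the synthesis mean in liver and gut correlated at 0.43. Mean log2 values of the markers, with group means removed, were set beside the synthesis mean too. In gut the correlation was -0.41 for B and plasma cells, -0.34 for epithelium and 0.44 for adipocytes. In liver it was 0.38 for B and plasma cells, 0.06 for hepatocytes and 0.42 for epithelial markers. Several B cell and epithelial markers were dim in liver and not shown to be above background, such as Ms4a1 (mean 5.20) and Krt20 (5.44). Cdx1 (9.78) and Fabp2 (9.90) were brighter. The liver values for these 2 lists therefore do not measure cell content. The part of the markers was not tested.

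Another 4 lists from the pathway's surroundings were counted for ZT12 minus ZT0 with donors averaged. Over all genes 13.2% were higher and 15.1% lower in liver, and 10.3% higher and 11.2% lower in gut. Of 14 genes of SREBP processing and sterol-regulated degradation, 2 were higher and 4 lower in liver (median -0.01), and 2 higher and 3 lower in gut (median -0.06). Srebf1, encoding the relative of SREBP2 that drives fatty acid synthesis, rose in liver by 0.84 (adjusted p = 2.66e-05), and was at -0.14 in gut (adjusted p = 0.169). Mbtps1, the first protease that cuts SREBPs, was lower in gut (-0.32) and liver (-0.13). Erlin1, of the complex that degrades sterol-sensing enzymes, was lower in liver (-0.23) and higher in gut (0.32). Tmem97, an SREBP2 target, was higher in liver (0.28) and gut (0.26). Of the transcription factors that act beside SREBPs, Sp1 was lower in liver (-0.17) and gut (-0.10), the NF-Y subunit Nfyb lower in liver (-0.36) and the subunit Nfya lower in gut (-0.15).

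Of 22 genes of lipoprotein and sterol traffic, 4 were higher and 4 lower in liver (median -0.003), and 0 higher and 4 lower in gut (median -0.02). The backgrounds here were again 13.2% higher and 15.1% lower in liver, and 10.3% and 11.2% in gut. In liver the sterol carrier Stard5 rose by 0.50, while Osbp, a sterol sensor at Golgi contacts, was at -0.40 and Lipa, the lysosomal lipase that frees cholesterol from esters, at -0.41. Lcat, which esterifies cholesterol in plasma lipoproteins, rose by 0.18, while Lipc, hepatic lipase, was at -0.19 and the sterol carrier Gramd1a at -0.17. In gut Lrp1, a scavenging receptor, was at -0.29, Gramd1a at -0.16, Nr1h2, encoding LXRβ, at -0.12 and Osbp at -0.10. Of 9 isoprenoid branch genes, 1 was higher and 5 lower in liver (median -0.16), and 1 higher and 3 lower in gut (median -0.04). They include Pdss1, higher in liver (0.27) and gut (0.16), and Pdss2, lower in both (-0.34 and -0.16); their products together build the side chain of ubiquinone. Dhdds, of dolichol synthesis, was lower in liver (-0.18) and gut (-0.24), its partner Nus1 lower in liver (-0.21) and Coq2, of ubiquinone synthesis, lower in gut (-0.24). The prenyltransferase subunits Fnta (-0.17) and Pggt1b (-0.16) were lower in liver. Of 8 oxysterol and bile acid enzymes, 2 were higher and 1 lower in liver (median -0.12), and 1 was higher in gut (median -0.02). Cyp7a1, which commits cholesterol to bile acids, rose by 1.62 in liver (adjusted p = 4.29e-06), Akr1d1, a later reductase, by 0.46, and Hsd3b7 was at -0.57. Cyp27a1, which makes an oxysterol, rose by 0.43 in gut (adjusted p = 0.0187).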

How the data were processed

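Per the submitters' processing notes, the authors computed intensity per transcript cluster with PLIER; its version is not named in those notes. In the deposited value table stand linear intensities of 35556 clusters on 48 arrays. The 8 deposited comparison tables name 23811 of these clusters (67.0%) and give, per the file headers, a p-value and a ratio of group means from a test; no software for it is given in the sources used here. Of the named clusters, 22726 were matched to RefSeq by accession, 688 by current and 108 by older symbol; the remaining 289 stayed as deposited. Where several clusters named a gene, that with the highest mean was kept, which left 20702 genes.

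Intensities were taken as log2(intensity + 16) and quantile normalised within a tissue, or over all 48 arrays for tissue comparisons. The offset understates differences of dim genes. Two-sided tests came from lmFit and eBayes of limma 3.58.1 (R 4.3.3), fitted to 6 groups per tissue with 18 residual degrees of freedom, or to 12 groups for tissue comparisons, with Benjamini-Hochberg adjustment over all genes and a threshold of 0.05. Intervals cover 95%. The number of arrays limits the precision. Tables and plots used Python 3.11.15, pandas 2.3.3, numpy 2.4.6 and matplotlib 3.10.9.

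The members, gene lists and markers were chosen with earlier results of these data known. All members are named; genes of the other lists are named where they passed, at most 6 per list and tissue by lowest adjusted p, and Srebf1 in gut for comparison. Replicate numbers come from the titles and did not pair samples: deviations of same-numbered arrays had a mean correlation of -0.085 in liver (14 pairs) and 0.001 in gut (16 pairs), and arrays of the same mouse in both tissues 0.02 (15 pairs).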

Additional observations from a re-analysis of the deposited data

Results flagged for a closer look

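In 16 of 408 groups of 4 arrays, 1 array lay far from the other 3, by a gap to the nearest, relative to the group's range, above Dixon's 95% critical value; chance flags about 1 in 20 groups. In gut these were, in log2 intensity, Mvk in KD ZT0 replicate 4 (7.85, the nearest other array being at 8.03), Sqle in NC ZT12 replicate 9 (10.57, against 10.71), Abcg8 in HF ZT12 replicate 12 (11.49, against 10.98) and Abca1 in KD ZT12 replicate 10 (9.11, against 8.59). NC ZT0 replicate 4 of gut stood apart for Npc1 (8.92, against 9.55) and Npc1l1 (11.97, against 12.29), both low.

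In liver, NC ZT12 replicate 13 was high for Lss (9.98, against 9.26) and Nsdhl (11.21, against 10.62), and NC ZT0 replicate 1 was low for Idi1 (9.94, against 10.52) and Nsdhl (10.29, against 11.11). Lbr was low in HF ZT0 replicate 3 (7.73, against 8.21) and in NC ZT12 replicate 11 (7.55, against 7.91). Single arrays were low for Sqle in HF ZT12 replicate 10 (8.92, against 9.65), Fdps in KD ZT0 replicate 1 (11.03, against 11.25) and Npc1l1 in KD ZT0 replicate 5 (6.24, against 6.44). Abcg5 was high in NC ZT12 replicate 8 (10.57, against 10.30).

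The difference between ZT12 and ZT0 was not the same in liver and gut for 23 members, by the limma test of that difference. In liver minus gut it was -0.776 for Acat2, -1.281 for Hmgcs1, -0.312 for Mvk, -0.740 for Pmvk, -1.420 for Mvd, -0.873 for Idi1 and -0.734 for Fdps. It was -0.843 for Fdft1, -0.947 for Sqle, -1.244 for Lss, -0.908 for Cyp51, -0.768 for Msmo1, -0.711 for Nsdhl, -0.628 for Hsd17b7, -0.221 for Ebp and -0.386 for Sc5d. Outside synthesis it was -0.310 for Srebf2, -1.057 for Insig1, -1.172 for Insig2 and -0.337 for Stard4, and above 0 for Npc1 (0.584), Abcg5 (0.875) and Abcg8 (0.981).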

How the results depend on the processing

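The alternatives were no quantile step, an offset of 1, no genes under the 30th percentile, a fit limited to the groups being compared, a robust trended prior, a replicate block, the mean of a gene's clusters, the authors' p-values, and leaving out each array. With the replicate block (consensus correlation -0.1276 in liver, -0.0256 in gut and 0.038 for the mouse across tissues) all 135 calls on single members kept their direction and side of the threshold. Over all alternatives except leaving out arrays, 767 such calls did, 28 kept their direction and no longer passed, and 1 turned: Hmgcs1 in liver minus gut was -0.117 without the quantile step. Of the counts, in the limited fit 1 member passed for ZT12 minus ZT0 in gut with HF donors, and by the authors' p-values 1 passed for KD against NC donors at ZT12 in gut; the cause was not tested. Leaving out 1 array, the members passing for ZT12 minus ZT0 were 14 to 18 in liver and 20 to 21 in gut over all donors, 1 to 5 with HF, 9 to 17 with KD and 2 to 13 with NC donors in gut, and 4 to 7, 4 to 6 and 4 to 9 in liver. For liver minus gut they were 34 in every case, for the change of the time difference 22 to 24, and 0 in every donor comparison. Samples taken at other times of day were not analysed here; only 4 arrays a group limit the precision within a donor diet.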
